A study of Mus musculus with 8 samples.

Results

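The Hox genes of mouse embryonic stem (ES) cells were followed through loss of the cytokine LIF, in cells with and without the histone demethylase RBP2. A gene was included when the only gene symbol of a probe set was Hoxa, Hoxb, Hoxc or Hoxd followed by a number, whatever its brightness. This gave 48 probe sets of 45101 on the array and 33 genes of 18193, with 9 genes in the A cluster, 9 in B, 7 in C and 8 in D. RNA was hybridised to Affymetrix 430 2.0 arrays in 4 groups of 2 arrays: Rbp2f/f cells with LIF, Rbp2-/- cells with LIF, and cells of each genotype after 6 days in ES cell medium lacking LIF. By convention f/f marks a conditional allele that has not been deleted. The labels give neither the way in which Rbp2 was deleted nor the clones used, and they call the arrays of a group biological replicates without naming cultures. The p-values therefore measure the spread between these samples only, which may be technical.

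Hox genes encode homeodomain transcription factors that give cells their position along the body axis. They lie in clusters in which genes at one end, with low paralogue numbers, are in general switched on earlier and more anteriorly than those at the other end. In undifferentiated ES cells the clusters are held silent by Polycomb complexes, with activating and repressive histone marks side by side, and they open on differentiation. RBP2, read here as the product of Kdm5a, removes methyl groups from lysine 4 of histone H3, a mark of active promoters, and Hox genes are among its known targets. The comparisons ask how much the Hox genes change on LIF withdrawal and whether that change differs without RBP2.

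Values are the intensities that the authors deposited, on a linear scale, and differences are on the scale of log2(intensity + 16), which understates changes of dim genes. For each gene the probe set brightest on average over the 8 arrays was used, and the gene was called at a Benjamini-Hochberg adjusted p under 0.05 over all 18193 genes in limma. The median intensity of an array was 15.7 to 24.6, so most Hox genes lay near the dim end of the scale. Of the 33 genes, 6 to 10 lay above the median of their array on the arrays with LIF and 15 to 20 on those without. Replicate 2 of Rbp2-/- with LIF stood apart: its trimmed mean was 65.5% of that of the other arrays. Kdm5a, the targeted gene, read 128.2 and 167.2 (Rbp2f/f) and 31.2 and 30.6 (Rbp2-/-) in the presence of LIF. After withdrawal it read 225.7 and 246.6 (Rbp2f/f) and 100 and 80.2 (Rbp2-/-). All Rbp2-/- arrays thus lay below all Rbp2f/f arrays, by 1.79 ± 0.26 (SE) with LIF and 1.25 ± 0.26 without on the log2 scale, although neither difference passed the adjusted threshold over 18193 genes (adjusted p = 0.16 and 0.33). Whether the probe set lies in the deleted part of the gene is not given in the sources used here.

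Promoter sequences of 19 of the 33 genes, 21 in all, were taken from RefSeq (GRCm38.p6) as the 250 bases before the annotated start. Of the 10 Hox genes called on LIF withdrawal, described further on, Hoxb1, Hoxd1, Hoxd8, Hoxd9 and Hoxd10 were among them, and Hoxb2, Hoxb3, Hoxb6, Hoxc8 and Hoxc10 were not matched. The sequences of these 5 are shown because all 5 genes were called higher on withdrawal in the cells without RBP2. Capitals mark matches, on either strand, to CCGCCC, which the ARID domain of RBP2 binds and which is also a GC box, to AGGTCA, the half-site of retinoic acid receptors, and to TGATNNAT, a site of HOX proteins with their PBX partners.
Hoxb1 (chr11:96365508-96365757, plus strand): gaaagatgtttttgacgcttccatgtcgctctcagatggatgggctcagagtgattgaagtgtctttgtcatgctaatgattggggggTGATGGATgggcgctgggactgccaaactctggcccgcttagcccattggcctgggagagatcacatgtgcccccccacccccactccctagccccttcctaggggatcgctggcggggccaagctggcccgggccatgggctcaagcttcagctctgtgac
Hoxd1 (chr2:74762730-74762979, plus strand): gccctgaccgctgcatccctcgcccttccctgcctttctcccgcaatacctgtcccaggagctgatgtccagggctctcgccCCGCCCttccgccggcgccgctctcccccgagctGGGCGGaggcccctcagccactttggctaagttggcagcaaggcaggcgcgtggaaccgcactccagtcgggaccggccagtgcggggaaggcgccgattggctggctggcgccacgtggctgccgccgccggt
Hoxd8 (chr2:74704365-74704614, plus strand): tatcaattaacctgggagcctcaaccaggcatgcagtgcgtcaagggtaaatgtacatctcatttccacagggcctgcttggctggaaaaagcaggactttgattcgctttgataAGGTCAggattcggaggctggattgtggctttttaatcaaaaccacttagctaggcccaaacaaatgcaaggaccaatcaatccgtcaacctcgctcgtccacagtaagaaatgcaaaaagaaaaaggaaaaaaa
Hoxd9 (chr2:74697513-74697762, plus strand): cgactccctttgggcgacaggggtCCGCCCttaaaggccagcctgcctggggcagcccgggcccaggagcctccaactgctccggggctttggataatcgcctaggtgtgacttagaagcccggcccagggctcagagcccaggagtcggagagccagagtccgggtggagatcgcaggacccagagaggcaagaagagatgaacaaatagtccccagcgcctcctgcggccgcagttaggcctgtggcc
Hoxd10 (chr2:74691641-74691890, plus strand): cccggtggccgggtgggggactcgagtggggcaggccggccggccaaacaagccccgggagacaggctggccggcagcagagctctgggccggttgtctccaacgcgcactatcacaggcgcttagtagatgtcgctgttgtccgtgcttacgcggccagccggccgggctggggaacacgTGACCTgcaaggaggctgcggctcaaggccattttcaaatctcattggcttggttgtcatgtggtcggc
The window of Hoxb1 held a HOX-PBX match 162 to 155 bases before the start. Hoxd1 held CCGCCC at 168 to 163 bases and its reverse complement at 134 to 129 bases before the start, and Hoxd9 held CCGCCC at 226 to 221 bases. The retinoid half-site stood at 135 to 130 bases in Hoxd8 and, reversed, at 69 to 64 bases in Hoxd10. At the positions given, no match overlapped another. Over the 21 Hox promoters, CCGCCC was present in 8 (38.1%, against 32.7% of all 32851 promoters in the table), AGGTCA in 5 (23.8% against 14.0%) and TGATNNAT in 3 (14.3% against 7.68%). The median number of CpG dinucleotides was 13 in the Hox windows and 6 over all promoters. A match is a description of letters and does not show binding.

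LIF withdrawal raised a part of the Hox genes in both genotypes and called none as lower. In Rbp2f/f cells, 6 of 33 genes rose (18.2%) and 0 fell, where 6.27% of all genes were called higher and 3.15% lower: Hoxb2, Hoxb3, Hoxc8, Hoxc10, Hoxd8 and Hoxd9. In Rbp2-/- cells, 10 of 33 rose (30.3%) and 0 fell, where 8.17% of all genes were called higher and 1.53% lower: the same 6 and Hoxb1, Hoxb6, Hoxd1 and Hoxd10. The 6 genes were thus all of the calls in Rbp2f/f and 60% of those in Rbp2-/-, and the remaining 23 genes were called in neither. Whether more cells expressed these genes or each cell held more of their RNA cannot be told apart in bulk samples. The calls rested on few arrays, as did those of all genes. In Rbp2f/f, leaving out replicate 1 or replicate 2 with LIF left 1 and 2 Hox genes called (3.06% and 3.34% of all genes in either direction, against 9.42% with all arrays). Leaving out replicate 1 or replicate 2 without LIF left 3 and 2 (2% and 1.46% of all genes). In Rbp2-/-, leaving out replicate 1 without LIF left 0 called and replicate 2 left 5 (1.34% and 2.2% of all genes, against 9.71%). Leaving out replicate 1 or the dim replicate 2 with LIF left 6 and 5 (18.6% and 6.74% of all genes). After quantile normalization 6 Hox genes were called in Rbp2-/- (7.13% of all genes), and with genes under the 40th percentile of mean intensity left out, which kept 7 Hox genes, 3 were called in each genotype (20.4% and 23% of all genes tested).

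**Figure D1:**
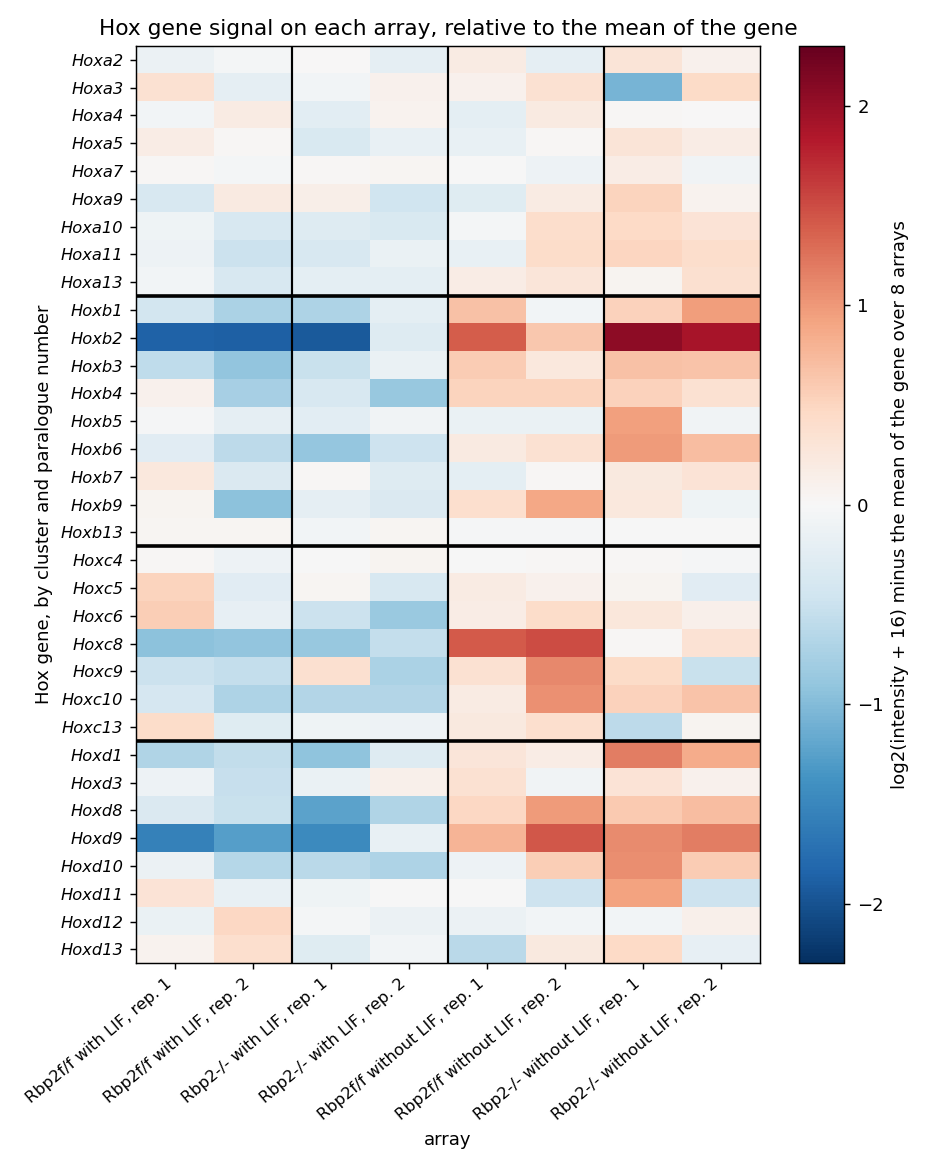
Signal of the 33 Hox genes (rows, by cluster and paralogue number, clusters separated by lines) on the 8 arrays (columns), as log2(intensity + 16) minus the mean of the gene over the arrays, red above and blue below that mean. Hoxb2, Hoxc8 and Hoxd9 show the deepest contrast between the arrays with and without LIF, and most A cluster genes stay near their mean.

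As a group, the 33 genes had a median difference on withdrawal of 0.42 in Rbp2f/f, where the median of all genes was 0.01, and of 0.46 in Rbp2-/-, where that of all genes was 0.23. The difference was positive for 24 of 33 genes in Rbp2f/f (72.7%, against 51.6% of all genes) and for 30 of 33 in Rbp2-/- (90.9%, against 72.4%). In Rbp2-/- 23 genes lay above the all-gene median, and the differences given below for that genotype include this shift of 0.23 of all genes. Differences ran from -0.43 to 2.87 in Rbp2f/f and from -0.34 to 3.08 in Rbp2-/-. The withdrawal effects of the genotypes, which share no arrays, had a Pearson correlation of 0.75 across the 33 genes, which are neighbours in clusters and not independent. Over both genotypes, all 4 arrays without LIF lay above all 4 with LIF for 13 of the 33 genes (39.4%, against 16.5% of all genes), and below them for 0 (against 4.03%). Those 13 were the called genes and Hoxa10, Hoxa13 and Hoxb4. The dimmer probe set of Hoxa10 went the other way, reading 5.2 to 9.6 with LIF and 1 to 7.1 without. With every probe set fitted as a feature, it differed by -0.38 ± 0.16 in Rbp2f/f and -0.14 ± 0.16 in Rbp2-/- (adjusted p = 0.25 and 0.68). By genotype, the arrays without LIF lay above those with LIF for 16 genes in Rbp2f/f (all genes, 30%) and 19 in Rbp2-/- (all genes, 42.5%), and below them for 2 and 0 (all genes, 26.2% and 8.9%).

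**Figure D2:**
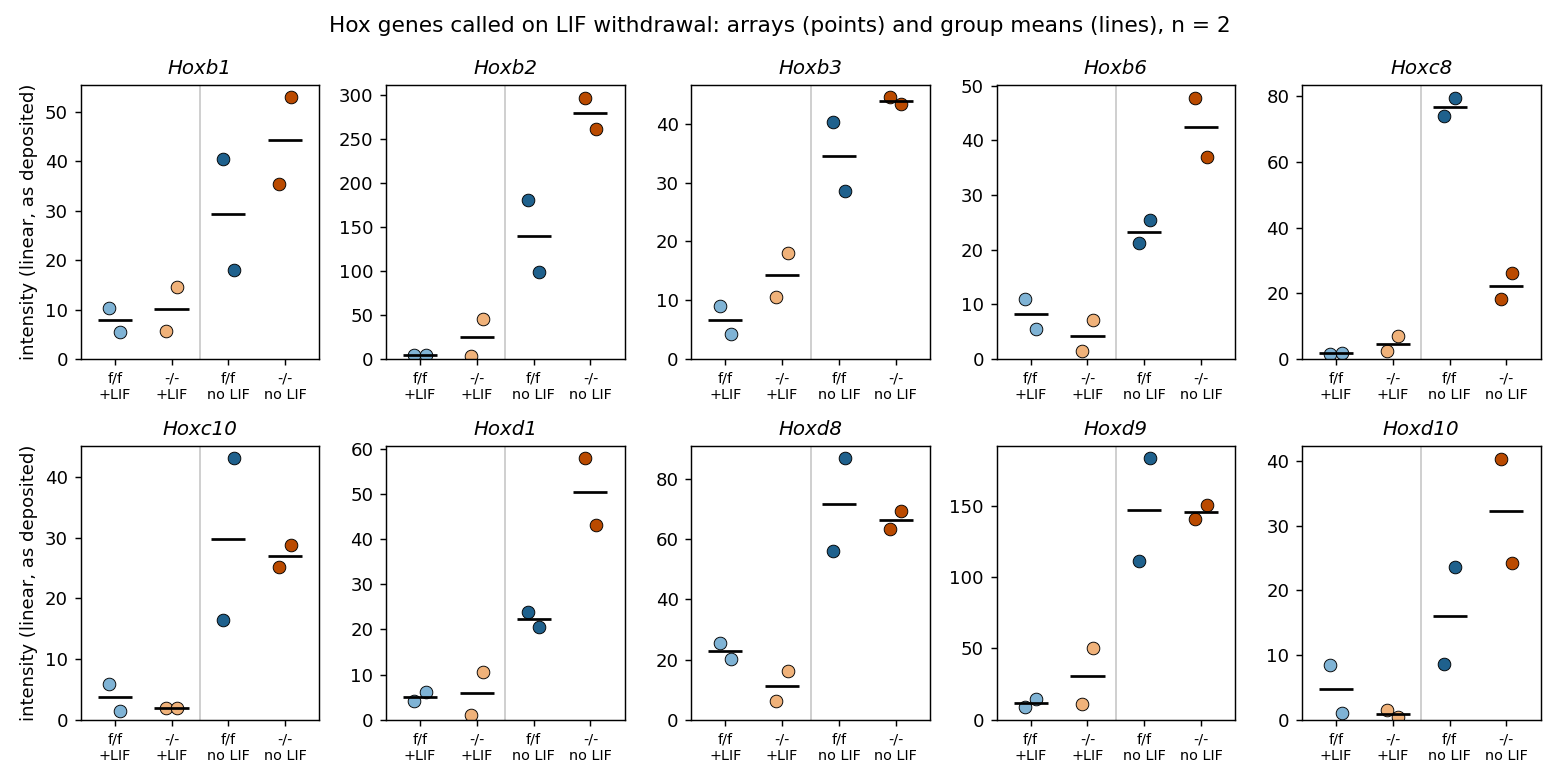
Deposited intensity (vertical axis, linear, a scale for each gene) of the 10 called Hox genes on each array (points) in the 4 groups, with group means as lines (n = 2). For all 10 the arrays without LIF lie above those with LIF, and Hoxc8 is the gene whose Rbp2-/- arrays without LIF, at 18.2 and 26.2, lie far below those of Rbp2f/f, at 74 and 79.5.

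The B cluster gave the largest single change. Hoxb2, which patterns the hindbrain and facial motor neurons, read 4.7 and 4.4 (Rbp2f/f) and 3.7 and 45.2 (Rbp2-/-) with LIF, then 180 and 98.7 (Rbp2f/f) and 296.3 and 261.2 (Rbp2-/-) after its withdrawal. The arrays without LIF were all higher, and among those with LIF only the dim replicate 2 of Rbp2-/- was raised. Hoxb2 rose by 2.87 ± 0.48 in Rbp2f/f (adjusted p = 0.008) and by 3.08 ± 0.48 in Rbp2-/- (adjusted p = 0.0071, 2.85 above the all-gene median). Hoxb1, the hindbrain gene of rhombomere identity that also responds early to retinoic acid, read 10.4 and 5.5 (Rbp2f/f) and 5.6 and 14.6 (Rbp2-/-) with LIF, then 40.5 and 17.9 (Rbp2f/f) and 35.3 and 53 (Rbp2-/-) after its withdrawal. It rose by 1.21 ± 0.32 in Rbp2-/- (adjusted p = 0.044, a call made in 4 of 16 alternative settings), and its difference in Rbp2f/f was 0.88 ± 0.32 (adjusted p = 0.12). The groups with and without LIF did not overlap in either genotype, although the spread within the groups without LIF was wide.

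Hoxb3, an anterior gene of the same cluster, read 9.1 and 4.2 (Rbp2f/f) and 10.6 and 18.1 (Rbp2-/-) with LIF, then 40.3 and 28.6 (Rbp2f/f) and 44.6 and 43.3 (Rbp2-/-) after its withdrawal. It rose by 1.15 ± 0.26 (adjusted p = 0.025) and 0.99 ± 0.26 (adjusted p = 0.043) in Rbp2f/f and Rbp2-/-, calls made in 10 and 2 of 16 alternative settings. Another probe set of Hoxb3 was also higher on every array without LIF, reading 9.8 to 43 there and 3.9 to 6.2 with LIF. With every probe set fitted as a feature, it differed by 0.90 ± 0.39 in Rbp2f/f and 0.95 ± 0.39 in Rbp2-/- (adjusted p = 0.27 and 0.21). The brighter Hoxb3 probe set was not called in that fit either (adjusted p = 0.059 and 0.087). Hoxb6, a trunk gene, read 11 and 5.4 (Rbp2f/f) and 1.4 and 7.2 (Rbp2-/-) with LIF, then 21.2 and 25.4 (Rbp2f/f) and 47.8 and 36.9 (Rbp2-/-) after its withdrawal. The 4 arrays without LIF were the highest, those of Rbp2-/- above those of Rbp2f/f. Hoxb6 rose by 1.53 ± 0.25 in Rbp2-/- (adjusted p = 0.008), and its difference in Rbp2f/f was 0.71 ± 0.25 (adjusted p = 0.11). The B cluster as a whole had medians of 0.84 in Rbp2f/f, with 2 of 9 genes called, and 0.99 in Rbp2-/-, with 4 of 9. The all-gene medians were 0.01 and 0.23, with 6.27% and 8.17% of all genes called higher.

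Hoxb4, a gene known from blood stem cells, was not called by its brighter probe set, which read 25.4 and 6.8, 14.1 and 5.1 in Rbp2f/f and Rbp2-/- with LIF and 39.2 and 38.8, 40 and 33 without it. Its other probe set read 6.7 and 11.2, 6.4 and 5.2 with LIF and 40.6 and 30.9, 49.4 and 31 without it. The arrays separated by medium on both. In a fit of every probe set as a feature of its own, 2.82% of 45037 probe sets were called higher in Rbp2f/f and 3.52% in Rbp2-/-. There the dimmer Hoxb4 probe set rose by 1.35 ± 0.28 in Rbp2-/- (adjusted p = 0.035) and differed by 1.05 ± 0.28 in Rbp2f/f (adjusted p = 0.076). With each gene taken as the mean over its probe sets, Hoxb4 was called in both genotypes and Hoxb3 in neither. In that setting 7.4% of all genes were called in either direction in Rbp2f/f and 8.46% in Rbp2-/-.

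In the D cluster, Hoxd9, a gene of posterior trunk and limb, had the largest change. It read 9.1 and 14.8 (Rbp2f/f) and 10.8 and 50.2 (Rbp2-/-) with LIF, then 111.2 and 183.3 (Rbp2f/f) and 140.8 and 150.7 (Rbp2-/-) after its withdrawal. As for Hoxb2, replicate 2 of Rbp2-/- was the highest array with LIF and still lay below every array without it. Hoxd9 rose by 2.52 ± 0.42 in Rbp2f/f (adjusted p = 0.0078) and 1.94 ± 0.42 in Rbp2-/- (adjusted p = 0.023). Hoxd8 read 25.4 and 20.3 (Rbp2f/f) and 6.1 and 16.1 (Rbp2-/-) with LIF, then 56.1 and 87 (Rbp2f/f) and 63.3 and 69.4 (Rbp2-/-) after its withdrawal. The media did not overlap. Hoxd8 rose by 1.15 ± 0.31 (adjusted p = 0.044, called in 7 of 17 alternative settings) in Rbp2f/f and 1.63 ± 0.31 (adjusted p = 0.013) in Rbp2-/-. Another Hoxd8 probe set was higher without LIF on each array too, at 23.4 to 59.4 against 1.1 to 22.7.

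Hoxd1, at the anterior end of its cluster, read 4.1 and 6.1 (Rbp2f/f) and 1.1 and 10.6 (Rbp2-/-) with LIF, then 23.8 and 20.6 (Rbp2f/f) and 57.8 and 43.1 (Rbp2-/-) after its withdrawal. Without LIF the Rbp2-/- arrays were the highest and did not overlap those of Rbp2f/f. The gene rose by 1.63 ± 0.27 in Rbp2-/- (adjusted p = 0.0081) and differed by 0.86 ± 0.27 in Rbp2f/f (adjusted p = 0.077). Hoxd10, a gene of lumbar spinal cord and hindlimb, read 8.4 and 1 (Rbp2f/f) and 1.5 and 0.4 (Rbp2-/-) with LIF, then 8.6 and 23.6 (Rbp2f/f) and 40.4 and 24.2 (Rbp2-/-) after its withdrawal. In Rbp2f/f the media almost touched, at 8.4 and 8.6, while in Rbp2-/- they lay well apart. Hoxd10 rose by 1.49 ± 0.29 in Rbp2-/- (adjusted p = 0.014), and its difference in Rbp2f/f was 0.62 ± 0.29 (adjusted p = 0.23). Of the 8 D cluster genes, 2 were called in Rbp2f/f and 4 in Rbp2-/-, where 6.27% and 8.17% of all genes were called higher. The D cluster medians were 0.54 and 0.9, beside 0.01 and 0.23 for all genes.

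In the C cluster the called genes were Hoxc8 and Hoxc10, of thoracic and lumbar identity. Hoxc8 read 1.6 and 1.9 (Rbp2f/f) and 2.4 and 6.9 (Rbp2-/-) with LIF, then 74 and 79.5 (Rbp2f/f) and 18.2 and 26.2 (Rbp2-/-) after its withdrawal. The arrays without LIF were higher in each genotype, and those of Rbp2f/f were higher than those of Rbp2-/-. It rose by 2.38 ± 0.23 in Rbp2f/f (adjusted p = 0.0014, the smallest of the 33 genes) and by 0.89 ± 0.23 in Rbp2-/- (adjusted p = 0.043, called in 4 of 16 alternative settings). Hoxc10 read 5.9 and 1.5 (Rbp2f/f) and 1.9 and 1.9 (Rbp2-/-) with LIF, then 16.5 and 43.1 (Rbp2f/f) and 25.2 and 28.8 (Rbp2-/-) after its withdrawal. The media did not overlap and the genotypes did. Hoxc10 rose by 1.16 ± 0.28 (adjusted p = 0.032) in Rbp2f/f and 1.26 ± 0.28 (adjusted p = 0.024) in Rbp2-/-. The cluster's medians, over 7 genes, were 0.23 and 0.14, beside 0.01 and 0.23 for all genes. In each genotype 2 of the 7 were called, where 6.27% and 8.17% of all genes were called higher.

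No gene of the A cluster was called, with 0 of 9 in either genotype, where 6.27% and 8.17% of all genes were called higher. Among 9 genes, 0 calls is near those shares. The cluster had medians of 0.08 and 0.44, beside 0.01 and 0.23 for all genes. Its largest difference was that of Hoxa11, a limb and uterus gene, which read 32.8 and 21.5 (Rbp2f/f) and 25.1 and 31.6 (Rbp2-/-) with LIF, then 31 and 55.1 (Rbp2f/f) and 58.5 and 54.3 (Rbp2-/-) after its withdrawal. The media overlapped in Rbp2f/f and not in Rbp2-/-, and the differences were 0.43 ± 0.30 (adjusted p = 0.44) and 0.71 ± 0.30 (adjusted p = 0.17). For Hoxa9, a gene active in blood progenitors, the probe sets disagreed. The brighter one, used here, overlapped between media, at 49.1 to 87.7 with LIF and 58.1 to 112.2 without, and differed by 0.03 in Rbp2f/f and 0.46 in Rbp2-/-. The dimmer one read 0.9, 2.5, 2.3 and 14.5 with LIF and 30.7, 24.9, 79 and 30.9 without it. It did not overlap between media and differed by 1.31 ± 0.38 in Rbp2f/f (adjusted p = 0.097) and 1.5 ± 0.38 in Rbp2-/- (adjusted p = 0.061) in the fit of every probe set. Hoxa9 and Hoxb4 were singled out after their values were seen.

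The 23 genes called in neither genotype had differences of -0.43 to 1.24 in Rbp2f/f and -0.34 to 1.06 in Rbp2-/-, with lowest adjusted p-values of 0.09 and 0.071. The highest group mean of such a gene ran from 1.95 for Hoxb13 to 155 for Hoxa5, so some were at the dimmest end of the scale in all 4 groups. By position in the cluster, the 7 genes of paralogue groups 1 to 3 had medians of 0.86 in Rbp2f/f and 0.99 in Rbp2-/-, with 2 and 4 called. The 12 genes of groups 4 to 8 had medians of 0.04 and 0.54, with 2 and 3 called, and the 14 of groups 9 to 13 had medians of 0.42 and 0.39, with 2 and 3 called. Beside these, 6.27% and 8.17% of all genes were called higher, and the all-gene medians were 0.01 and 0.23. With 7 to 14 genes in a group, the counts are small. The called genes lay at anterior, middle and posterior positions, and no test compared the positions.

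**Figure D3:**
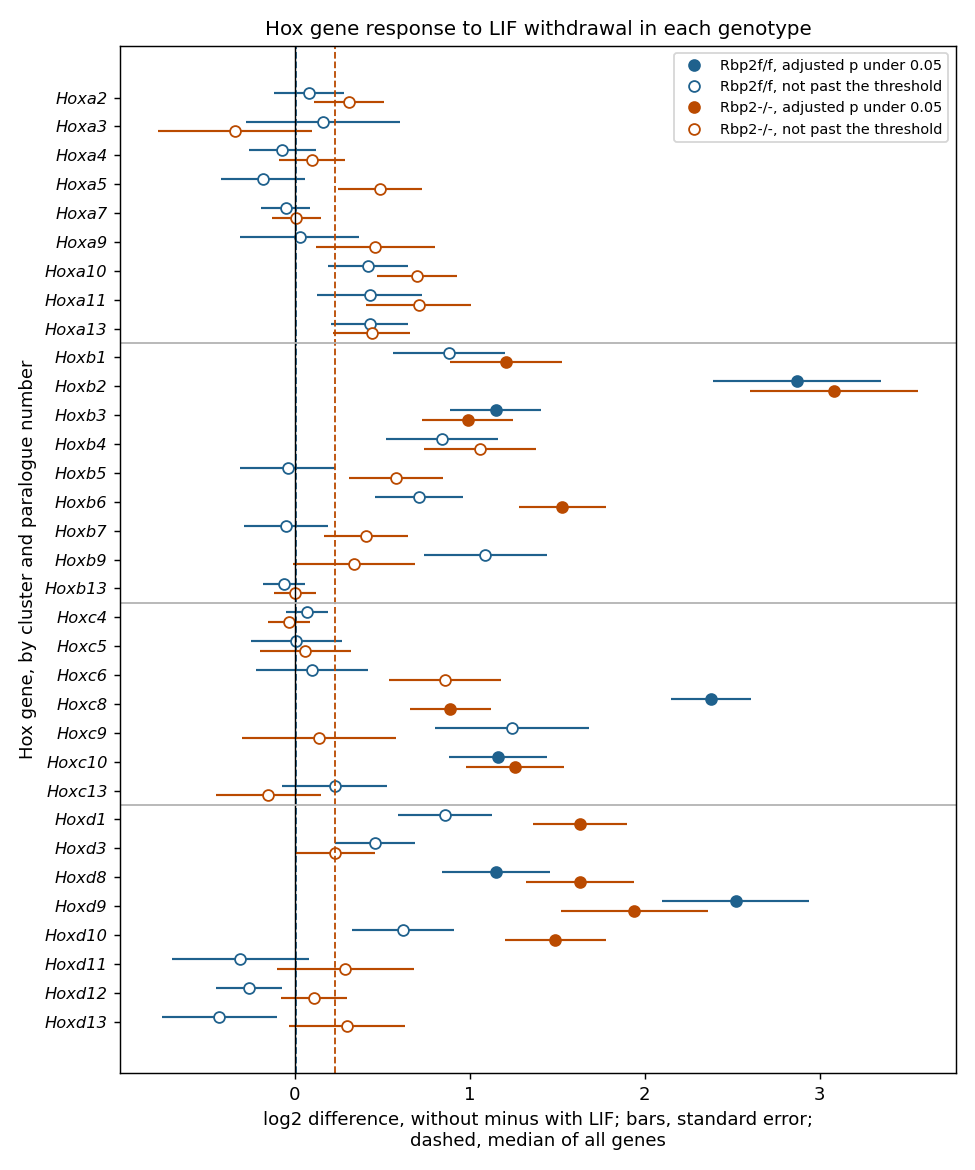
Log2 difference between cells without and with LIF (horizontal axis, points, with standard errors as bars) of each Hox gene in Rbp2f/f (blue) and Rbp2-/- (orange), filled where the adjusted p was under 0.05; dashed lines mark the medians of all genes, 0.01 and 0.23. Filled points lie in the B, C and D clusters, with Hoxb2 at 2.87 and 3.08 farthest to the right.

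Between the genotypes, no Hox gene passed the threshold in either medium. With LIF, 0 of 33 genes were called and 0% of all 18193 genes, and at an unadjusted p under 0.05 the counts were 1 and 2350. The Hox median was -0.05, beside -0.18 for all genes, and without the dim array these were -0.09 and -0.06. Differences ran from -0.87 for Hoxc6 to 0.76 for Hoxb2, and the smallest adjusted p was 0.33. Hoxc6, a thoracic gene, read 74.4 and 37.4 (Rbp2f/f) and 27.2 and 17.5 (Rbp2-/-) with LIF, then 52.5 and 65.1 (Rbp2f/f) and 56.4 and 49.9 (Rbp2-/-) after its withdrawal. Its Rbp2-/- arrays were the lowest with LIF, by 0.87 on the log2 scale (95% interval of the difference -1.6 to -0.14), or 0.69 more than the all-gene median, and the genotypes overlapped without LIF. The probe sets used for Hoxc6 and Hoxa5 are of the manufacturer's x class, whose probes can match other transcripts, so their values are uncertain as to the gene. Another Hoxc6 probe set, outside that class, read 45.4 and 25 (Rbp2f/f) and 41 and 28 (Rbp2-/-) with LIF, then 54.9 and 55.3 (Rbp2f/f) and 55.8 and 66.2 (Rbp2-/-) after its withdrawal. Its genotypes overlapped with LIF, and in the fit of every probe set it differed between them by 0.00 ± 0.30 there. The third Hoxc6 probe set, the dimmest, overlapped between the genotypes with LIF too, at -0.13 ± 0.27. The withdrawal difference of Hoxc6 was 0.10 ± 0.32 in Rbp2f/f (adjusted p = 0.91) and 0.86 ± 0.32 in Rbp2-/- (adjusted p = 0.13) by the brightest probe set, and 0.50 ± 0.30 (adjusted p = 0.45) and 0.62 ± 0.30 (adjusted p = 0.3) by the one outside the x class, which was higher on each array without LIF. The Rbp2-/- arrays with LIF lay above those of Rbp2f/f for 2 genes (all genes, 6.85%), Hoxb3 and Hoxc8, and below for 4 (all genes, 32.7%), Hoxa5, Hoxc6, Hoxd8 and Hoxd13. Leaving out replicate 1 of Rbp2-/- with LIF gave 1 called Hox gene, Hoxb2, with 6.96% of all genes called in either direction, and Rbp2-/- was then the dim array alone.

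That dim array carried the highest signal of the 4 arrays with LIF for 9 of the 33 Hox genes (27.3%), while the same held for 9.33% of all genes. Hoxb1, Hoxb2, Hoxb3, Hoxc8, Hoxd1 and Hoxd9 were among them. Replicate 1 of Rbp2f/f was the highest for 17 Hox genes (51.5%, all genes 39.3%), replicate 2 of Rbp2f/f for 4 (12.1%, all genes 27.1%) and replicate 1 of Rbp2-/- for 2 (6.06%, all genes 23.7%). The summed intensity of 11 pluripotency markers was 6980 on the dim array, against 12700 to 13300 on the others with LIF and 1890 to 2210 without LIF. These sums were not scaled for the trimmed mean of the dim array, 65.5% of that of the other arrays. Its sum of 17 trunk mesoderm and neural tube markers was 464, against 677 to 776 on the others with LIF. For 19 fibroblast markers it was 4420, against 2730 to 4180. The part of brightness or of cell types in the Hox values of that array was not tested.

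Without LIF, 0 of 33 genes were called between the genotypes and again 0% of all genes, with 3 and 1491 at an unadjusted p under 0.05. The Hox median was 0.11 and that of all genes 0.03. Hoxc8 was lower in all arrays of Rbp2-/-, by 1.29 ± 0.23 on the log2 scale (95% interval -1.81 to -0.76), with the smallest unadjusted p of the 33 genes, 0.00029, and an adjusted p of 0.33. Hoxd1 differed the other way by 0.79 ± 0.27 (95% interval 0.2 to 1.38, adjusted p = 0.46), Hoxb6 by 0.57 ± 0.25 (0.01 to 1.12, adjusted p = 0.6) and Hoxb2 by 0.97 ± 0.48 (-0.11 to 2.06, adjusted p = 0.66). Hoxd9 had a difference of 0.02 ± 0.42, with an interval of -0.92 to 0.97 that leaves room for a change of either sign. Over the 33 genes the half-width of the 95% interval was 0.26 to 1.08 with a median of 0.62 before any adjustment, and differences well above that, such as that of Hoxc8, also missed the adjusted threshold. By cluster, the difference was positive for 7 of 9 A genes, 7 of 9 B genes and 7 of 8 D genes, and for 0 of 7 C genes, whose values ran from -1.29 to -0.01. In C the sign depended on the probe set. In the fit of every probe set, the Hoxc6 one outside the x class was at 0.11 ± 0.30 and the dimmest of Hoxc5 at 0.31 ± 0.22. The remaining unused ones of Hoxc6 and Hoxc5 were at -0.44 ± 0.27 and -0.31 ± 0.16. Outside C the sign also differed between the probe sets of Hoxa4, at 0.03 ± 0.18 and -0.19 ± 0.16, and of Hoxb4, at -0.07 ± 0.35 and 0.11 ± 0.28. The Rbp2-/- arrays were the higher ones for 10 genes (all genes, 26.9%) and the lower ones for 4 (all genes, 19.5%), Hoxb9, Hoxc5, Hoxc8 and Hoxc13.

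**Figure D4:**
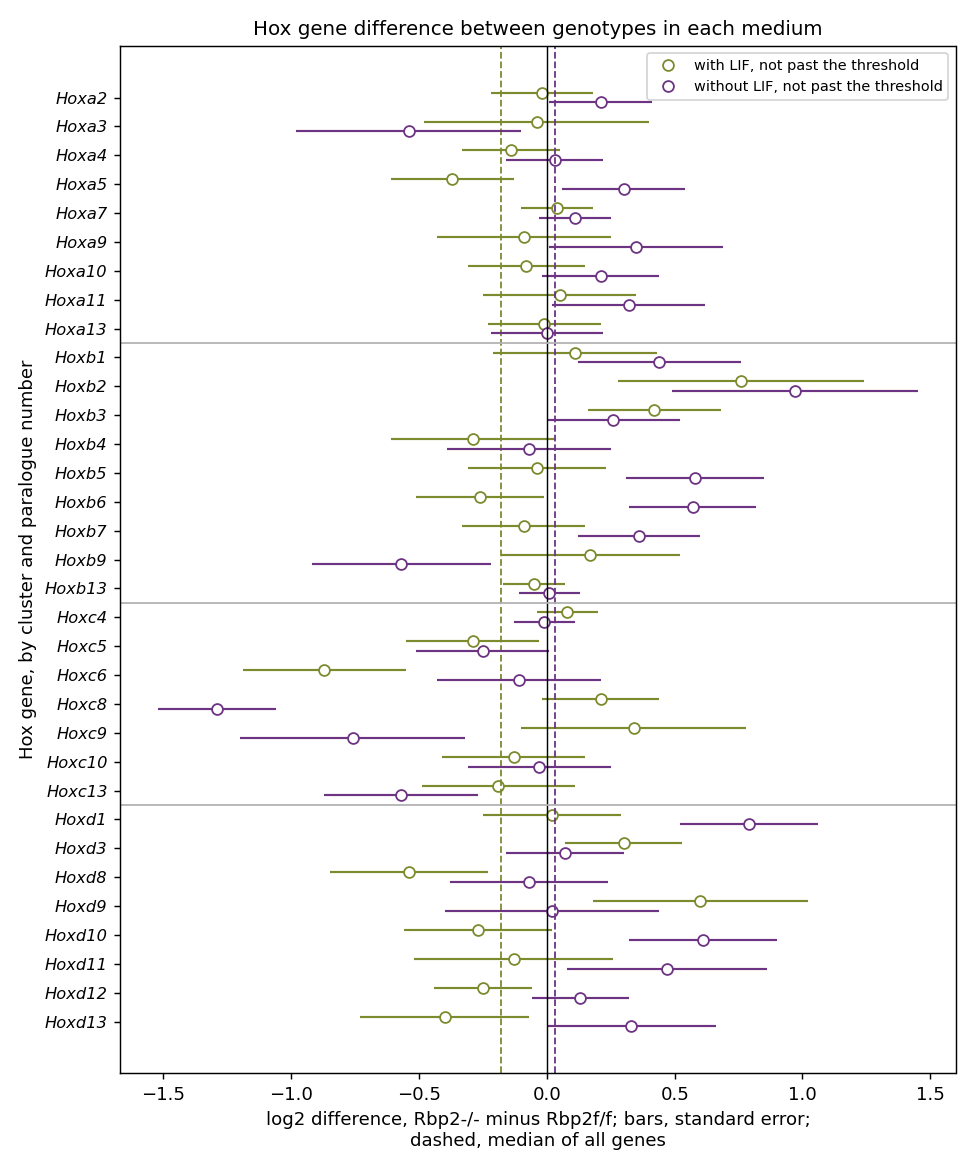
Log2 difference between Rbp2-/- and Rbp2f/f cells (horizontal axis, points, with standard errors as bars) of each Hox gene with LIF (green) and without LIF (purple); dashed lines mark the medians of all genes, -0.18 and 0.03. All points are open because 0 genes passed the adjusted threshold, and the C cluster genes without LIF lie at or left of 0, with Hoxc8 at -1.29 the farthest.

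The difference between the withdrawal effects of the genotypes, the interaction, called 0 of 33 Hox genes and 0% of all genes, with 2 and 1652 at an unadjusted p under 0.05. The 2 Hox genes were Hoxc8, whose rise was smaller in Rbp2-/- (-1.5 ± 0.33, 95% interval -2.24 to -0.76, adjusted p = 0.5), and Hoxb6, whose difference was larger there (0.82 ± 0.35, 0.04 to 1.61, adjusted p = 0.54). For Hoxd10 it was 0.88 ± 0.41 (adjusted p = 0.55), and for Hoxb2 0.22 ± 0.68. The 4 genes called in Rbp2-/- but not in Rbp2f/f are therefore not shown to respond differently in the genotypes. The Hox median of the interaction was 0.22, next to 0.21 for all genes.

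HOX proteins bind DNA with TALE homeodomain partners, and about as many of these rose as did not. Of 8 measured cofactors, 4 rose in Rbp2f/f and 5 in Rbp2-/-, with none called lower, where 6.27% and 8.17% of all genes were called higher. Their medians were 0.97 and 1.19, beside 0.01 and 0.23 for all genes. Pbx3 rose by 1.16 and 1.93, Meis2 by 1.96 and 1.72, Meis3 by 1.91 and 1.31 and Pknox2 by 2.13 and 2.03 in Rbp2f/f and Rbp2-/-, and Pbx2 by 1.07 in Rbp2-/-. Meis2 read 16.8 to 34.7 on the arrays with LIF and 110.1 to 149.9 on those without. Meis1, at -0.09 and 0.07, Pbx4, at -0.06 and -0.16, and Pknox1, at -0.46 and -0.54, were not called.

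Of 13 measured activators upstream of the clusters, 3 rose in Rbp2f/f, and in Rbp2-/- 1 rose and 1 fell. Of all genes, 6.27% were called higher in Rbp2f/f, and in Rbp2-/- 8.17% were called higher and 1.53% lower. The 1 in 13 that rose in Rbp2-/- is near the share called higher, and the 1 that fell is a single gene, Cdx1. The medians were 0.42 and 0.39, beside 0.01 and 0.23 for all genes. Cdx2, a caudal homeobox activator of trunk Hox genes, read 57.2 and 29.7 (Rbp2f/f) and 43.9 and 74.1 (Rbp2-/-) with LIF, then 179.5 and 237.8 (Rbp2f/f) and 214.4 and 224.5 (Rbp2-/-) after its withdrawal. It was higher on all arrays without LIF and rose by 1.95 ± 0.32 (adjusted p = 0.0072) and 1.68 ± 0.32 (adjusted p = 0.014). Aldh1a2, which makes retinoic acid, and Fgf8, a growth factor of the tail bud, rose in Rbp2f/f by 1.98 ± 0.35 and 2.89 ± 0.65. In Rbp2-/- they differed by 0.43 ± 0.35 (adjusted p = 0.49) and 1.58 ± 0.65 (adjusted p = 0.16). Cdx1 fell by 1.39 in Rbp2-/-, where the dim array had its highest value with LIF, 57.1, and the arrays without LIF read 0.9 and 6.5.

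Among 25 measured chromatin regulators of the clusters, 3 rose and 4 fell in Rbp2f/f, and 2 rose and 3 fell in Rbp2-/-. The medians were -0.09 and 0.24, beside 0.01 and 0.23 for all genes. Of all genes, 6.27% and 8.17% were called higher and 3.15% and 1.53% lower. The 2 of 25 called higher in Rbp2-/-, Kdm6b and the targeted gene Kdm5a, are near that share. The Polycomb subunits Cbx7 and Phc1 fell by 2.45 and 2.18 in Rbp2f/f and by 1.69 and 1.71 in Rbp2-/-. Jarid2, a partner of the repressive H3K27 methyltransferase complex, fell by 1.69 and 1.71, and Eed, a core subunit of it, by 1.13 in Rbp2f/f. Kdm6b, a demethylase that removes the Polycomb mark, rose by 1.2 and 1.46, and Bmi1 and Phc2 rose by 1.25 and 0.99 in Rbp2f/f. Kdm5a itself rose by 1.17 in Rbp2-/-. Of 13 measured genes next to the clusters, 1 rose in Rbp2f/f, near the 6.27% of all genes, and 2 in Rbp2-/-, beside 8.17% of all genes, with medians of 0.13 and 0.49. Evx1, the homeobox gene beside Hoxa13, read 18 and 3.6, 24.6 and 50.1 in Rbp2f/f and Rbp2-/- with LIF and 124.3 and 131.5, 141 and 230.4 without it. It was higher on all arrays without LIF and rose by 2.48 (adjusted p = 0.005) and 1.92 (adjusted p = 0.016). No gene of the neighbouring A cluster was called, but Hoxa13, and Hoxa10 by its brighter probe set only, were also higher on all arrays without LIF. Cbx5, near the C cluster, rose by 1.24 in Rbp2-/-.

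Markers of cell types moved with LIF withdrawal. Of 11 pluripotency markers 10 fell in each genotype and Tbx3 rose, with medians of -2.31 and -2.59, where 3.15% and 1.53% of all genes were called lower. Of 19 measured fibroblast markers, 12 rose in Rbp2f/f and 7 in Rbp2-/-, where 6.27% and 8.17% of all genes were called higher, with medians of 1.52 and 0.94 and 0 members at 0 on all arrays. Their summed intensity was 2730 to 4420 with LIF and 9540 to 10500 without. Much of that sum came from Fn1, which read 2036.7 to 3251.1 with LIF and 4902 to 6901.7 without. The arrays of some members, such as Thy1, S100a4, Lox and Col6a2, overlapped between media. Of 17 markers of trunk mesoderm and neural tube, 5 rose and 2 fell in Rbp2f/f, and 6 rose and 1 fell in Rbp2-/-, with medians of 0.35 and 0.38. Their summed intensity was 464 to 776 with LIF and, after its withdrawal, 2240 and 1840 (Rbp2f/f) and 4510 and 4060 (Rbp2-/-), with 0 members at 0 on all arrays. Much of that sum came from Hand1, a gene of lateral mesoderm and extraembryonic tissue, which read 1111 and 490.7 (Rbp2f/f) and 3567 and 1868.5 (Rbp2-/-), and from Mixl1, a gene of the primitive streak, at 477.5 and 856, and 139 and 1145.8. Hand1, Foxf1 and Gata4 rose in both genotypes, Meox1 and Mixl1 in Rbp2f/f, and Tbx6, Msgn1 and Hand2 in Rbp2-/-. None of the neural members Sox1, Pax6, Neurog1 and Neurog2 was called, Olig2 fell in both genotypes, from 75.8 to 381.4 on the arrays with LIF to 5.3 to 27.3 on those without, and Pax7 fell in Rbp2f/f. The part of such cells in the Hox differences was not tested.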

How the data were processed

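The authors deposited linear intensities summarised per probe set for 8 arrays, with summarisation, background correction and scaling not given in the sources used here. Values ran from 0 to 11476.5 with 39 zeros and no detection calls. The platform annotation gave a single symbol to 34945 probe sets of 45101 and several to 932, and 64 were controls. Groups were compared as log2(intensity + 16) with limma 3.58.1 in R 4.3.3: lmFit on 4 group means and eBayes with a trend (4 residual and 5.7 prior degrees of freedom), no filter on low values, two-sided p-values adjusted over 18193 genes. Array values were printed for Hox genes called in a contrast, with the largest withdrawal difference of their cluster, or with the 3 smallest p-values of a contrast. The members, the pathway and marker lists and the tests were chosen with earlier results of these data known. Alternatives covered scaling, pseudocount, filter, probe sets, variance model, replicate block and each array left out. The code was tested on simulated data. The number of arrays limits the precision.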

Additional observations from a re-analysis of the deposited data

Results flagged for a closer look

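Some Hox values stood out between genotypes or lay outside the comparisons above. By its brightest probe set, of the x class, Hoxa5 read 148.4 and 133.3 (Rbp2f/f) and 97.8 and 113.5 (Rbp2-/-) with LIF, then 113.2 and 133 (Rbp2f/f) and 161.8 and 147.8 (Rbp2-/-) after its withdrawal. The arrays moved down on withdrawal in Rbp2f/f and up in Rbp2-/-, and Rbp2-/- lay below Rbp2f/f with LIF and above it without. The difference between these effects was 0.67 ± 0.34 (adjusted p = 0.57). The other Hoxa5 probe set did not show it: it was higher without LIF on all arrays of each genotype than with LIF, by 0.58 ± 0.31 in Rbp2f/f and 0.92 ± 0.31 in Rbp2-/- (adjusted p = 0.37 and 0.13 in the fit of every probe set), and its genotypes overlapped in both media. Hoxc8 lay slightly higher in Rbp2-/- with LIF and lower without, a difference of -1.5 (adjusted p = 0.5).

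Probe sets with a Hox symbol outside the rule gave further signal. One for the antisense transcript Hoxb5os had a mean of 27 in Rbp2-/- without LIF, with arrays at 24.3 and 29.7 against 4.8 to 23.1 with LIF. It was not called in the fit of every probe set. Its withdrawal difference was 0.83 ± 0.29 in Rbp2-/- (adjusted p = 0.15) and -0.03 ± 0.29 in Rbp2f/f (adjusted p = 0.98). The dimmer of 2 probe sets shared by Hoxd4 and Hoxd3 had a mean of 13.2 in Rbp2-/- without LIF, against 0.8 to 2.3 on the arrays with LIF, and rose there by 0.73 ± 0.14 (adjusted p = 0.024 in the fit of every probe set). The brighter one read 7.7 to 15.7 with LIF and 13.6 to 26.9 without, and its difference in Rbp2-/- was 0.43 ± 0.28 (adjusted p = 0.44). A probe set of the antisense transcript Hoxa11os had means of 9.45 in Rbp2f/f and 7.1 in Rbp2-/- without LIF, against 1.1 to 2.2 on the arrays with LIF. It was not called either, at 0.49 ± 0.15 in Rbp2f/f and 0.39 ± 0.15 in Rbp2-/- (adjusted p = 0.12 and 0.18 in the same fit). Another Hoxa11os probe set read 0.3 to 2.3 on all 8 arrays, with differences of -0.04 and 0.04.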

How the results depend on the processing

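The number of called Hox genes depended on the settings. For withdrawal in Rbp2f/f it was 6, where 9.42% of all genes were called in either direction. It became 3 with genes under the 40th percentile left out (7 Hox genes remained, 20.4% of all genes tested called). With every probe set as a feature it was 3 (4.08% of probe sets). In Rbp2-/- it was 10 (9.71% of all genes), and became 6 after quantile normalization (7.13%) and 3 with the filter (23% of genes tested). In both genotypes it also changed with an array left out, as given in the Results beside the shares of all genes. For the genotype effect with LIF it ran from 0 to 1. A lone array of a group was assumed to vary like the other groups. With the replicate number as a block, 6 and 8 Hox genes were called on withdrawal (9.09% and 8.72% of all genes). Between genotypes 0 were called (0% of all genes). Same-numbered arrays deviated together at r = -0.08 to 0.15, so the numbers were not taken as pairs. Hox medians moved with the pseudocount, the filter and the arrays left out. In Rbp2f/f the withdrawal median was 0.57 with a pseudocount of 4 and 0.16 with 64 (all genes, 0.02 and 0). With an array left out it was 0.19 to 0.58 (all genes, -0.01 to 0.05). In Rbp2-/- it was 0.24 after quantile normalization and 0.22 after median centring, where the all-gene median was -0.01 in both. The Hox median thus lay 0.25 and 0.23 above that of all genes, as against 0.23 in the main fit. It was 0.72 with 4, 0.20 with 64 and 0.86 with the filter (all genes, 0.33, 0.11 and 0.39). With an array left out it was 0.43 to 0.68 (all genes, 0.11 to 0.37), and the Hox median lay 0.14 to 0.49 above that of all genes. The genotype median with LIF was 0.09 after centring (all genes, -0.04) and -0.14 to 0.10 with an array left out (all genes, -0.31 to -0.06). Without LIF it was 0.27 with 4 and 0.30 with the filter (all genes, 0.04 and 0.02). The interaction median was 0.00 after centring, 0.38 with 4, 0.08 with 64 and 0.43 with the filter (all genes, 0, 0.3, 0.11 and 0.31). Hoxc6 on withdrawal in Rbp2f/f, never called, turned to -0.05 after quantile normalization and ran from -0.28 to 0.48 with an array left out. Hoxc8 in Rbp2f/f was called in all 16 alternatives (adjusted p 0.00055 to 0.015) and Hoxb2 in Rbp2-/- in 16 of 17, while in Rbp2-/- Hoxb1 and Hoxc8 were called in 4 of 16 and Hoxb3 in 2 of 16, and Hoxd8 in Rbp2f/f in 7 of 17. The causes were not tested. Signal near the bottom of the scale limits the dim Hox genes.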

Other observations

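Some other homeobox genes of the same superclass also changed. Of 15 measured ParaHox and related genes, 3 rose and 1 fell on withdrawal in Rbp2f/f, and 3 rose and 2 fell in Rbp2-/-. Of all genes, 6.27% and 8.17% were called higher and 3.15% and 1.53% lower. The medians were 0.00 and 0.02, beside 0.01 and 0.23 for all genes. Msx2, a target of BMP signalling, read 53.8 to 198.7 with LIF and, after its withdrawal, 553.4 and 467.4 (Rbp2f/f) and 1700.1 and 1244.7 (Rbp2-/-). The 4 arrays without LIF were the highest, and it rose by 2.53 ± 0.33 (adjusted p = 0.0025) and 3.13 ± 0.33 (adjusted p = 0.0016). Msx1 rose by 2.71 and 2.32 and Dlx3 by 1.24 and 1.27 in Rbp2f/f and Rbp2-/-. Gbx2, a gene of the anterior hindbrain that is also expressed in ES cells, fell by 1.49 and 2.29, and En2, of the midbrain and hindbrain border, fell by 0.84 in Rbp2-/-.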
